A study of Mus musculus with 28 samples.

Results

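Enzymes of prostaglandin synthesis and of hyaluronan synthesis and breakdown, with the hyaluronan receptor Cd44, were followed in mouse embryonic fibroblasts (MEFs) under oxidative and genotoxic stress. The members were 10 genes, Ptgs1, Ptgs2, Ptges, Ptgis, Has1, Has2, Has3, Hyal1, Hyal2 and Cd44, and each was measured by every probe set whose single gene symbol in the array's annotation is that gene. Of them, 9 had such a probe set, 16 probe sets in all, out of 17097 genes with a single-symbol probe set and 45037 probe sets tested. Ptgs1 had none, and its comparison with Ptgs2 was not analysed here. RNA was hybridised to 28 Affymetrix arrays in 8 groups. The groups were p53-/- MEFs labelled as treated with 400 μM H2O2 and as untreated, p66-/- MEFs after H2O2, after 0.25 μg/ml doxorubicin (Doxo) and untreated, and wild-type (WT) MEFs after H2O2, after Doxo and untreated. Each group had 4 arrays, apart from the 2 arrays of each Doxo group, and p53-/- MEFs had no Doxo array. All cells were primary cultures from embryos of day 13.5, at passage 2 by most of the labels, and the treated ones were exposed for 4 h. The labels name the strain C57Bl/6 where the paper names sv129. The p53-/- cells lack the tumour suppressor p53, and the p66-/- cells lack the p66 product of Shc1, a protein tied to the production of reactive oxygen species, in both cases in all cells of the embryo. The study describes its replicates as independent preparations of MEFs.

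Prostaglandins are made from arachidonic acid, which phospholipases A2 free from membranes. The cyclooxygenases, the constitutive Ptgs1 and the inducible Ptgs2 (COX-2), turn it into prostaglandin H2, and terminal synthases convert that further: Ptges to prostaglandin E2 and Ptgis to prostacyclin. Hyaluronan is a long unbranched sugar polymer of the extracellular matrix. The synthases Has1, Has2 and Has3 polymerise it at the plasma membrane from UDP-glucuronic acid and UDP-N-acetylglucosamine, Hyal2 at the cell surface and Hyal1 in lysosomes cleave it, and Cd44 binds it. Both Ptgs2 and Has2 are known as genes of short-lived mRNAs that respond to serum, growth factors and cytokines in fibroblasts.

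The promoters of Ptgs2, Ptges, Hyal1 and Hyal2 are shown because, after Doxo, the change of Ptgs2 had the opposite sign to those of the other 3. Each runs 5′ to 3′ on the gene's strand, 250 bases before the gene start and 50 after it, from RefSeq on build GRCm38.p6. Ptgs2 lies on the plus strand at chr1:150099781-150100080, Ptges on the minus strand at chr2:30903248-30903547, Hyal1 on the plus strand at chr9:107576700-107576999 and Hyal2 on the plus strand at chr9:107568913-107569212. Capitals mark matches to any of the 7 motifs searched.
Ptgs2: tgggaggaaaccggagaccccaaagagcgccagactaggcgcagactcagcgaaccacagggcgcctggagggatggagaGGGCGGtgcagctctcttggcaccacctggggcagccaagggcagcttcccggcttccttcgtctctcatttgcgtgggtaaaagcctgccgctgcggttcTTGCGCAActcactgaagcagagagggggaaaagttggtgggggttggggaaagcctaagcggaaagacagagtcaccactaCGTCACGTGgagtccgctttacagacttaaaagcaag
Ptges: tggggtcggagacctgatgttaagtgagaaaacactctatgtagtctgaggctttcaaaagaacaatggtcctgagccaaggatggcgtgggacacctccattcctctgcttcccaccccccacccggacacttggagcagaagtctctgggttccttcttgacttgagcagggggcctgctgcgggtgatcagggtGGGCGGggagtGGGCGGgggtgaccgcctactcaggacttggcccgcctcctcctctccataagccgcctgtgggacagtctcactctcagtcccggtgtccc
Hyal1: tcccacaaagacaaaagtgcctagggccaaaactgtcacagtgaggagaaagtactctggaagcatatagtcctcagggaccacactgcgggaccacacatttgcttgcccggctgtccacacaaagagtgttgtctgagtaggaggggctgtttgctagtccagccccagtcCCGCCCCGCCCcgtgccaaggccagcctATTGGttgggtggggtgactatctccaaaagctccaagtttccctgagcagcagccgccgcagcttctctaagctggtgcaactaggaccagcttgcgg
Hyal2: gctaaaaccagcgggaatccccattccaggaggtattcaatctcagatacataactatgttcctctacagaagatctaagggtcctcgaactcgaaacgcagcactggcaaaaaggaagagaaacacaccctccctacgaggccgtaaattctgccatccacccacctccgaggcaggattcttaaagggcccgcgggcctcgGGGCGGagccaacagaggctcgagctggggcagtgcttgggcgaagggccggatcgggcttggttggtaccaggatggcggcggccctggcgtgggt
The motifs were searched on both strands among 32544 promoters of the same length. They were the cyclic AMP response element half-site CGTCA (found in 20.9% of all promoters), the E-box CACGTG (7.17%), the TATA box TATAAA (13.6%), the CCAAT box CCAAT (37.4%), the GC box GGGCGG (35.9%), the AP-1 site TGANTCA (7.79%) and the C/EBP palindrome TTGCGCAA (0.184%). The Ptgs2 window held 1 half-site, which overlaps an E-box just after the gene start, 1 C/EBP palindrome and 1 GC box. The Ptges window held 2 GC boxes, the Hyal1 window 2 GC boxes and 1 CCAAT box, and the Hyal2 window 1 GC box. Promoters were given for 6 of the members measured, and none for Has2, Has3 and Ptgis. A match describes the letters of a window and is no evidence that a factor binds there.

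Signals are given as deposited, on the log2 scale after robust multiarray averaging (RMA), so that a difference of 1 is a 2-fold change. They ran between 1.95 and 13.47, with array medians between 4.35 and 4.46. The signals of different probe sets are on different scales and were not ranked against each other. Of the fibroblast markers, all 12 genes measured were above the array median on at least 1 array, while Col1a2 was below it on 8. Their mean was lower after Doxo than in untreated cells of the same genotype, at 9.03 to 9.23 in p66-/- Doxo arrays and 9.67 to 10.23 in untreated p66-/- arrays, and at 8.88 to 9.23 in WT Doxo arrays and 9.34 to 10.46 in untreated WT arrays. Low means were not confined to Doxo. The mean was 8.91 to 9.71 in p53-/- arrays labelled H2O2 and 9.23 to 9.56 in those labelled untreated. After H2O2 it was 9.56 to 10.16 in p66-/- and 9.03 to 10.22 in WT MEFs. Of the 15 probe sets of these markers, 4 fell after Doxo in p66-/- and 4 in WT MEFs, and none rose. Those that fell were of Postn, Col3a1 and Col1a2 in both, Fn1 in p66-/- and Vim in WT MEFs. Of the other lists, 5 of 7 endothelial, 1 of 9 macrophage, 1 of 6 mesothelial and 1 of 6 muscle markers were below the array median on all 28 arrays. None of the 6 epithelial markers was, so that this measure does not set the fibroblast list apart from most others. The mean of the 9 macrophage markers was 6.25 to 6.35 in p66-/- Doxo arrays and 5.51 to 6.13 in untreated p66-/- arrays, and that of the 6 epithelial markers 6.13 to 6.16 after Doxo and 5.08 to 5.81 in untreated cells. In WT MEFs these means were 5.88 to 6.40 after Doxo and 4.67 to 6.13 in untreated cells for macrophages, and 5.88 to 5.99 after Doxo and 4.91 to 5.54 in untreated cells for epithelium. The mesothelial mean was 4.99 to 5.03 after Doxo and 4.14 to 4.83 in untreated p66-/- MEFs, and 4.74 to 4.93 after Doxo and 4.32 to 4.57 in untreated WT MEFs. The muscle mean was 5.64 to 6.28 after Doxo and 5.20 to 5.32 in untreated p66-/- MEFs, and 5.85 to 6.10 after Doxo and 4.93 to 5.90 in untreated WT MEFs. The part of these markers in the results below was not tested. A spike-in control, lys, was at 5.02 to 6.22 on the 12 arrays of replicates 1 and 2 outside Doxo and at 3.20 to 4.13 on the 12 of replicates 3 and 4, so that these arrays fell into 2 sets that the labels do not name. The 4 Doxo arrays, at 3.95 to 4.46, lay below the first set and overlapped the second. Which arrays were run beside the Doxo arrays is not given in the sources used here, and the part of such sets in the Doxo values was not tested beyond the comparisons with each set of untreated arrays below. Shc1 was at 8.17 to 8.58 in untreated p66-/- arrays and 7.74 to 7.91 in untreated WT arrays. Where its probe set lies relative to the removed part is not given in the sources used here, so that these values check no label.

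The treatment labels of the p53-/- arrays are in doubt. Across 45037 probe sets, the difference between p53-/- arrays labelled H2O2 and those labelled untreated correlated with the H2O2 response of WT MEFs at r = -0.82, whereas the response of p66-/- MEFs correlated with it at r = 0.57; genes are not independent replicates. Values of p53-/- MEFs are hence given by label and, where a direction is drawn, also with the 2 treatment labels exchanged.

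The main question was how the prostaglandin and hyaluronan genes responded to each stress. Doxo was followed by a fall of Ptgs2 and Has2 and a rise of Hyal1 and Hyal2 in both genotypes tested. Relative to untreated cells of the same genotype, 13 of the 16 member probe sets passed an adjusted p of 0.05 in p66-/- MEFs, 7 up and 6 down, standing for 8 of 9 genes. In WT MEFs 9 passed, 5 up and 4 down, standing for 7 genes. Doxo moved much of the transcriptome: 40.7% of all probe sets passed in p66-/- MEFs (26.6% up and 14.1% down) and 35.0% in WT MEFs (21.9% up and 13.0% down). The median change over all probe sets was 0.15 in p66-/- and 0.13 in WT MEFs, and over the members 0.24 and 0.38. As the members were chosen with earlier results of these data known, these counts describe the members and test no excess over the shares. Without p66-/- Doxo replicate 1 the p66-/- count was 8, with no share of all probe sets given for that fit. By the study's threshold, an unadjusted p under 0.05 and a 1.5-fold change, 12 member probe sets passed in p66-/- MEFs where 24.7% of all did, and 10 in WT MEFs where 22.5% did.

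Few of these genes passed after H2O2 in the main fit, which holds no pairing. In p53-/- MEFs, by label, none of the 16 probe sets passed against a background of 4.56% (2.11% up and 2.45% down), with 4 at an unadjusted p under 0.05, and 4 passed once the replicate number was taken as a block. None passed in p66-/- MEFs, where the background was 0.0178% and 1 member had an unadjusted p under 0.05. In WT MEFs 1 passed, that of Hyal1, which rose, against a background of 3.66% (1.86% up and 1.81% down). By the study's threshold, 4 member probe sets passed in p53-/- MEFs by label (background 4.78%), none in p66-/- (0.908%) and 2 in WT MEFs (4.66%). Counts at an unadjusted p alone and counts under the block have no share of all probe sets beside them, here and below. They are hence not read as an excess. Within a genotype the H2O2 and Doxo comparisons share their untreated arrays.

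**Figure D1:**
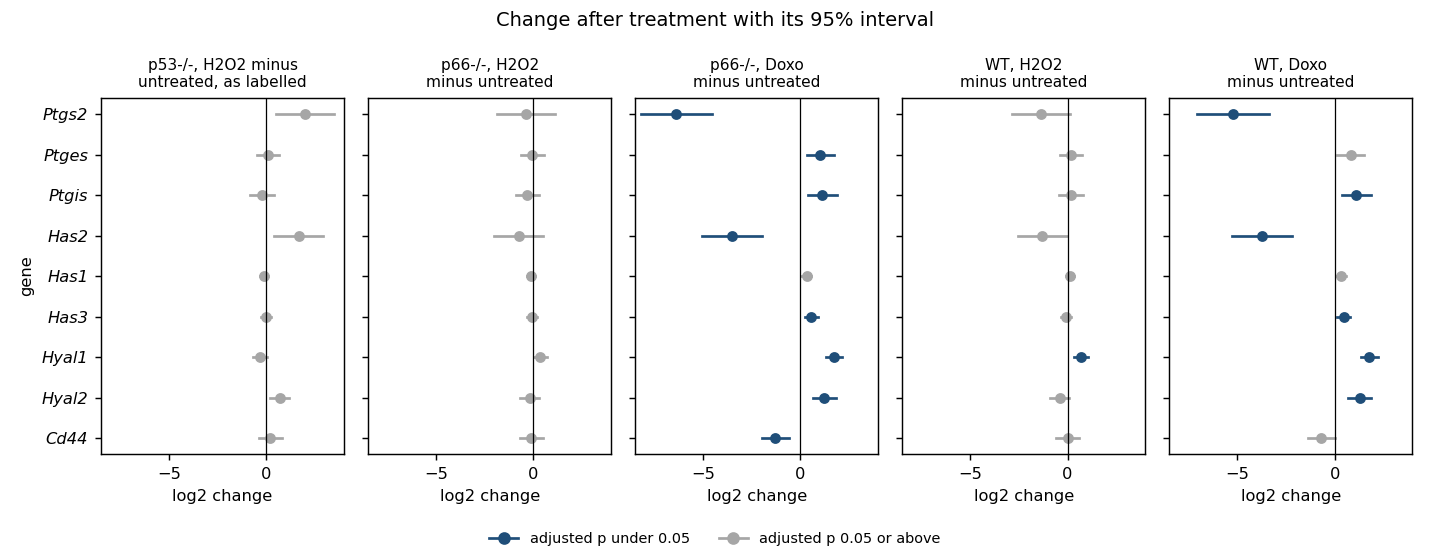
Log2 change after treatment (horizontal axis) of the 9 genes at their brightest probe set, with the 95% interval of the fit, in the 5 comparisons of a treatment with untreated cells. Dark points passed an adjusted p of 0.05. Ptgs2 and Has2 lie far left of 0 after Doxo in p66-/- and WT MEFs, while Hyal1 in WT MEFs is the only point past the threshold after H2O2.

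Ptgs2, the inducible cyclooxygenase, had the widest swings of the set. In p66-/- MEFs its signal was 4.34 and 5.00 after Doxo, 10.94, 10.96, 10.37 and 10.40 after H2O2, and 12.38, 11.46, 10.13 and 10.21 in untreated cells. WT MEFs gave 5.77 and 5.46 after Doxo, 10.75, 10.45, 7.96 and 8.76 after H2O2, and 11.63, 9.86, 11.08 and 10.75 without treatment. All 4 Doxo arrays thus lay below every other array of their genotype, and 1 of them was below its array's median signal. After Doxo Ptgs2 fell by 6.38 on the log2 scale in p66-/- MEFs (83.1-fold, SE 0.89, adjusted p = 1.3e-05) and fell by 5.21 in WT MEFs (37.1-fold, SE 0.89, adjusted p = 1.3e-04). A second, dimmer probe set of Ptgs2 fell by 3.35 in p66-/- (SE 0.67, adjusted p = 5.8e-04) and fell by 2.47 in WT MEFs (SE 0.67, adjusted p = 0.00740), so that the 2 probe sets share the direction and differ in size. The response of p66-/- MEFs minus that of WT MEFs was -1.16 (95% interval -3.76 to 1.43, adjusted p = 1.0), and 0% of all probe sets passed in that comparison. Against the untreated arrays of replicates 1 and 2 alone the Doxo change was -7.25 in p66-/- and -5.13 in WT MEFs, and against those of replicates 3 and 4 alone it was -5.50 and -5.30, settings chosen after seeing the data. Doxo signals lay near or below the array medians of 4.35 to 4.46 at both probe sets in p66-/- MEFs. In WT MEFs those of the second probe set lay near them, at 4.80 and 4.61. The sizes of these falls and of the genotype difference are hence uncertain. Fewer cells that express Ptgs2 and less Ptgs2 RNA per cell cannot be told apart in such bulk samples, here and for every gene that follows.

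After H2O2, Ptgs2 stood within the range of untreated cells in p66-/- MEFs, and in WT MEFs its 4 arrays were spread over the widest range of the 3 H2O2 groups. The change was -0.38 in p66-/- MEFs (SE 0.72, adjusted p = 1.0) and -1.35 in WT MEFs (SE 0.72, adjusted p = 0.503). The WT arrays divided by replicate number. Within replicates 3 and 4 Ptgs2 was 2.55 lower on the log2 scale after H2O2 (change -2.55, adjusted p = 9.6e-04), and within replicates 1 and 2 the change was -0.15 (adjusted p = 1.0). The second Ptgs2 probe set changed by -0.91 within replicates 3 and 4 (adjusted p = 0.0616) and by -0.15 within replicates 1 and 2. In p66-/- MEFs the change of the brighter probe set was 0.22 within replicates 3 and 4 and -0.97 within replicates 1 and 2. The difference between the genotypes, p66-/- minus WT, was 0.97 over all arrays (95% interval -1.15 to 3.09, adjusted p = 1.0; background 0.00222%), 2.77 within replicates 3 and 4 (adjusted p = 0.0261) and -0.82 within replicates 1 and 2 (adjusted p = 1.0), so that its sign turned between the sets. At the second probe set these differences were 1.39 (adjusted p = 0.127) and -1.32 (adjusted p = 1.0). In p53-/- MEFs Ptgs2 was 11.48, 11.21, 10.06 and 10.13 on arrays labelled H2O2, against 9.98, 10.63, 7.64 and 6.64 on arrays labelled untreated. Each array labelled H2O2 was above the array labelled untreated that carries its replicate number. By label the difference was 2.00 (SE 0.72, adjusted p = 0.132), and 2.00 with an adjusted p of 0.0150 once the replicate number was a block. With the labels exchanged it has the same size and the opposite sign. Without the p53-/- array labelled untreated of replicate 2 it was 2.63 by label (adjusted p = 0.0328).

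**Figure D2:**
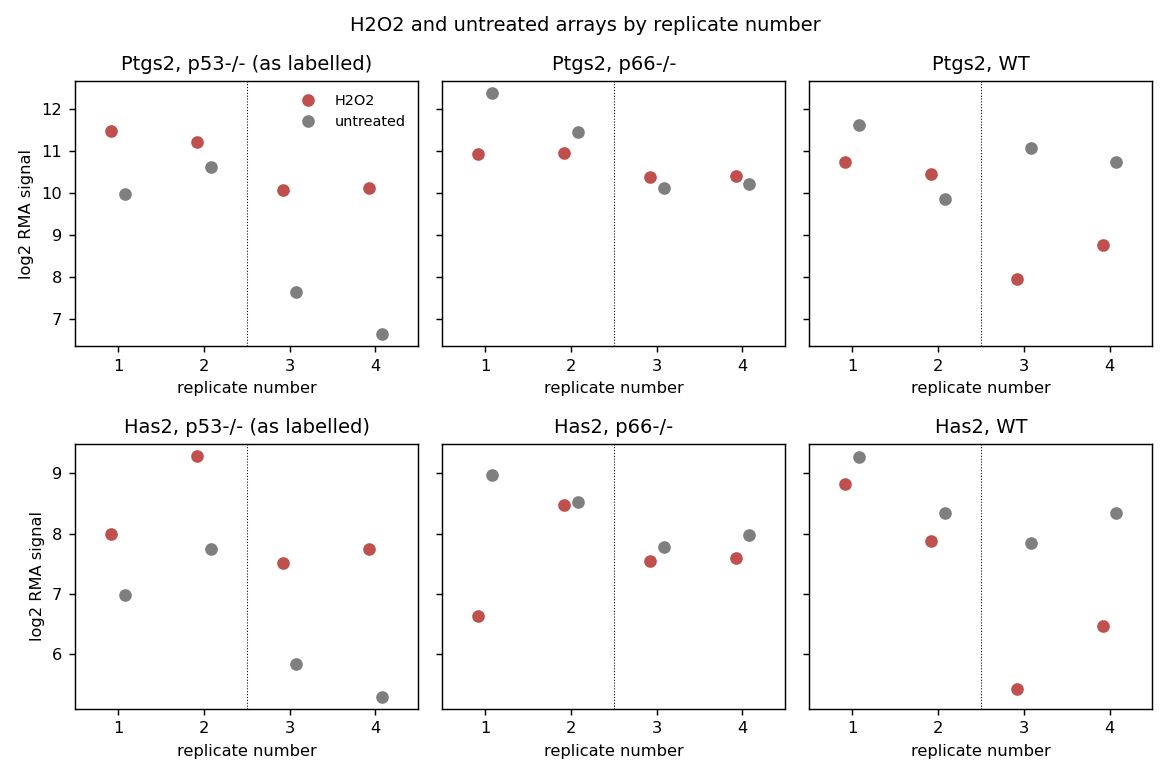
Log2 signal (vertical axis) of Ptgs2 (upper row) and Has2 (lower row) by replicate number in p53-/-, p66-/- and WT MEFs, with H2O2 arrays in red and untreated arrays in grey, as labelled. The dotted line parts the 2 sets of arrays. In WT MEFs the red points of replicates 3 and 4 lie well below the grey ones, and in p53-/- MEFs the grey ones lie below the red.

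The terminal synthases did not follow Ptgs2. Ptges, which makes prostaglandin E2, was 7.34 and 7.22 in p66-/- MEFs after Doxo, 6.09, 5.58, 6.63 and 6.58 after H2O2, and 6.10, 5.85, 6.67 and 6.44 in untreated cells. WT MEFs gave 7.04 and 7.70 after Doxo, 6.56, 6.67, 6.80 and 6.88 after H2O2, and 6.63, 6.52, 6.13 and 6.89 when untreated. Doxo arrays lay above all untreated ones in both genotypes. Ptges rose by 1.02 in p66-/- MEFs (2.02-fold, SE 0.34, adjusted p = 0.0213), while its change in WT MEFs was 0.82 (SE 0.34, adjusted p = 0.0632). Of its 2 other probe sets, 1 rose in both genotypes, by 1.17 in p66-/- (adjusted p = 0.00154) and 0.84 in WT MEFs (adjusted p = 0.0179). The other rose by 0.83 in p66-/- MEFs (adjusted p = 0.0169), with 0.64 in WT MEFs (adjusted p = 0.0661). Between the genotypes the Doxo responses of the brightest probe set differed by 0.19 (95% interval -0.80 to 1.19, adjusted p = 1.0). After H2O2 the change of Ptges was -0.05 in p66-/- (adjusted p = 1.0) and 0.18 in WT MEFs (adjusted p = 0.962).

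Ptgis, the prostacyclin synthase, was 9.60 and 9.46 in p66-/- MEFs after Doxo, against 8.15, 7.79, 8.77 and 8.91 in untreated cells. The WT arrays read 9.05 and 9.43 after Doxo, against 7.89, 7.98, 8.26 and 8.40 when untreated. The groups did not overlap in either genotype, and Ptgis rose by 1.13 in p66-/- (2.18-fold, SE 0.36, adjusted p = 0.0160) and by 1.11 in WT MEFs (2.16-fold, SE 0.36, adjusted p = 0.0201). H2O2 left it at 7.77, 7.69, 8.43 and 8.49 in p66-/- MEFs and 7.80, 8.05, 8.84 and 8.57 in WT MEFs, changes of -0.31 (adjusted p = 1.0) and 0.18 (adjusted p = 0.965). The p53-/- arrays overlapped by label for both synthases, with differences of 0.08 for Ptges and -0.21 for Ptgis (adjusted p = 0.924 and 0.772). The calls after Doxo were narrow: without replicate 1 or 2 of the p66-/- Doxo arrays, or p66-/- untreated replicate 2, Ptges changed by 0.96, 1.08 and 0.88 (adjusted p = 0.113, 0.0842 and 0.0607) and Ptgis by 1.05, 1.20 and 0.92 (adjusted p = 0.0975, 0.0683 and 0.0529), and without WT Doxo replicate 2 Ptgis changed by 0.92 in WT MEFs (adjusted p = 0.184). Against untreated replicates 3 and 4 alone the p66-/- changes were 0.73 for Ptges and 0.69 for Ptgis (adjusted p = 0.173 and 0.170), and that of Ptgis in WT MEFs was 0.91 (adjusted p = 0.0653).

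**Figure D3:**
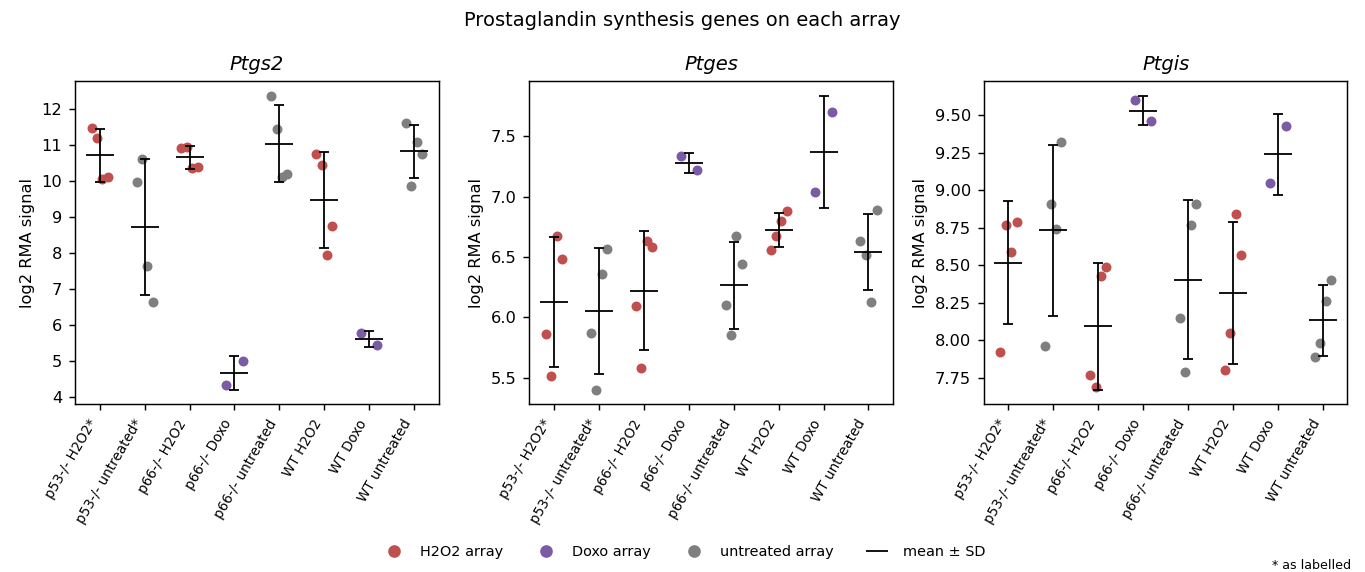
Log2 signal (vertical axis) of Ptgs2, Ptges and Ptgis on each of the 28 arrays by group, as points in the order of replicates, with the group mean and SD in black. Purple Doxo points lie lowest for Ptgs2 (4.34 to 5.77) and highest for Ptges (7.04 to 7.70), and those of Ptgis (9.05 to 9.60) lie above the H2O2 and untreated points of their genotype.

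Ordered by group mean, Ptgs2 ran p66-/- Doxo (4.67 ± 0.46), WT Doxo (5.62 ± 0.22), p53-/- labelled untreated (8.72 ± 1.89), WT H2O2 (9.48 ± 1.34), p66-/- H2O2 (10.67 ± 0.32), p53-/- labelled H2O2 (10.72 ± 0.73), untreated WT (10.83 ± 0.74) and untreated p66-/- MEFs (11.05 ± 1.08; SD, n = 2 for Doxo and 4 otherwise). The arrays of neighbours in this order overlapped, apart from the first 2 steps. Untreated p66-/- and untreated WT MEFs differed by 0.22 (95% interval -1.28 to 1.72, adjusted p = 1.0; no member probe set and 0% of all passed). Arrays labelled untreated p53-/- were at -2.11 relative to untreated WT (SE 0.72, adjusted p = 0.110, or 0.00975 with the replicate number as a block), and at -0.11 with the p53-/- labels exchanged (adjusted p = 0.997). In that comparison none of the members passed by label against 4.75% of all probe sets, with 5 at an unadjusted p under 0.05, and the background was 0.0844% with the labels exchanged.

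Has2, the synthase that makes most hyaluronan in mesenchymal cells, had the pattern nearest to that of Ptgs2 among the members. Its signal was 4.56 and 5.04 in p66-/- MEFs after Doxo, 6.63, 8.48, 7.55 and 7.59 after H2O2, and 8.98, 8.53, 7.78 and 7.98 in untreated cells. In WT MEFs it was 4.99 and 4.47 after Doxo, 8.83, 7.88, 5.42 and 6.47 after H2O2, and 9.27, 8.35, 7.84 and 8.34 in untreated cells. Every Doxo array was below every H2O2 and untreated array of its genotype. Has2 fell by 3.52 on the log2 scale after Doxo in p66-/- MEFs (11.4-fold, SE 0.74, adjusted p = 8.7e-04) and fell by 3.72 in WT MEFs (13.2-fold, SE 0.74, adjusted p = 6.3e-04). Its second probe set fell by 4.61 in p66-/- (SE 0.85, adjusted p = 2.7e-04) and fell by 3.79 in WT MEFs (SE 0.85, adjusted p = 0.00181). The 2 genotypes' responses at the brightest probe set differed by 0.20, with an interval of -1.96 to 2.37 (adjusted p = 1.0). After Doxo the second probe set read 3.86 and 3.85 in p66-/- and 4.44 and 4.53 in WT MEFs, and it was below the array median on 3 arrays. With Doxo signals of both probe sets near or below the array medians of 4.35 to 4.46, the sizes of these falls and of the genotype difference are uncertain.

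Under H2O2 the change of Has2 was -0.76 in p66-/- MEFs (SE 0.60, adjusted p = 1.0) and -1.30 in WT MEFs (SE 0.60, adjusted p = 0.372). As for Ptgs2, the WT arrays of replicates 3 and 4 carried the lower values, with a change of -2.15 within those replicates (adjusted p = 0.00249) against -0.45 within replicates 1 and 2. In p66-/- MEFs the change was -0.31 within replicates 3 and 4 and -1.20 within replicates 1 and 2. Taken by replicate number, each H2O2 array was below its untreated counterpart in p66-/- and WT MEFs at this probe set. At the second probe set WT replicate 2 went the other way, at 8.15 after H2O2 and 7.87 untreated. No paired test was run. The 2 genotypes' H2O2 responses differed by 0.54 (95% interval -1.23 to 2.31, adjusted p = 1.0). The p53-/- arrays labelled H2O2 gave 7.99, 9.29, 7.51 and 7.74, against 6.99, 7.75, 5.85 and 5.30 for those labelled untreated. That is a difference of 1.66 by label (SE 0.60, adjusted p = 0.133, or 0.0241 with the replicate number as a block) and -1.66 with the labels exchanged. The order of the group means matched that of Ptgs2 over the middle of the order, p53-/- labelled untreated up to p53-/- labelled H2O2, and only the step from p66-/- Doxo (4.80 ± 0.34) to p53-/- labelled untreated (6.47 ± 1.10) separated neighbours without overlap. Relative to untreated WT MEFs, Has2 was at -0.13 in untreated p66-/- (adjusted p = 1.0) and at -1.98 in p53-/- arrays labelled untreated (adjusted p = 0.0626, or 0.00722 with the block), or -0.32 with the labels exchanged.

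The other 2 synthases varied little between groups. Has1 ran from 4.69 to 5.43 over all 28 arrays, and Has3 from 3.25 to 4.24, below the array median on all 28. Has1 was 5.29 and 5.17 after Doxo in p66-/- MEFs and 5.43 and 4.98 in WT MEFs, above the untreated arrays, which ended at 5.07 in p66-/- and 4.93 in WT MEFs. Its change was 0.31 in both genotypes (SE 0.12, adjusted p = 0.050 in p66-/- and 0.0562 in WT MEFs), and passed without p66-/- untreated replicate 4 (0.36, adjusted p = 0.0308) or WT Doxo replicate 2 (0.54, adjusted p = 0.0141). Has3 was 4.24 and 3.97 after Doxo in p66-/- MEFs, against 3.34 to 3.95 in untreated cells, and 4.19 and 4.04 in WT MEFs, against 3.48 to 3.92. Has3 rose by 0.56 in p66-/- (SE 0.16, adjusted p = 0.00768) and 0.46 in WT MEFs (SE 0.16, adjusted p = 0.0264), beside a median shift of all probe sets of 0.15 and 0.13. The Has3 calls were lost without p66-/- Doxo replicate 1 (0.42, adjusted p = 0.118), and without either WT Doxo replicate (0.39 and 0.53, adjusted p = 0.166 and 0.0796) or WT untreated replicates 1 or 4 (0.43 and 0.40, adjusted p = 0.0592 and 0.0646). After H2O2, changes of both synthases lay between -0.14 and 0.13 in the 3 genotypes, and none passed.

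Set against each paralog within the same array, Has2 minus Has1 shifted after Doxo by -3.82 in p66-/- and by -4.03 in WT MEFs. Has1 itself did not fall, with a change of 0.31 in both genotypes. Its signals of 4.69 to 5.43 lay little above the array medians of 4.35 to 4.46, however, so that a fall had little room to show. Relative to Has3 the shifts were -4.07 in p66-/- and -4.18 in WT MEFs, but as Has3 lay below the array median on all 28 arrays, no shift against it shows by how much Has2 fell relative to a Has3 level above background. All Doxo arrays were below all untreated ones in these 4 comparisons, with an exact permutation p of 0.067 (two-sided), which is the smallest that 2 against 4 arrays allow, and an adjusted p of 0.13 over the 10 comparisons made. After H2O2 the shift of Has2 minus Has1 was 1.80 in p53-/- MEFs by label (exact permutation p = 0.029, the smallest for 4 against 4, adjusted p = 0.13), -0.63 in p66-/- (p = 0.14, adjusted p = 0.20) and -1.43 in WT MEFs (p = 0.17, adjusted p = 0.21). For Has2 minus Has3 the shifts were 1.67 by label (adjusted p = 0.14), -0.70 (adjusted p = 0.23) and -1.24 (adjusted p = 0.22). None of the 10 passed after adjustment, and the p53-/- shifts change sign with the labels exchanged.

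**Figure D4:**
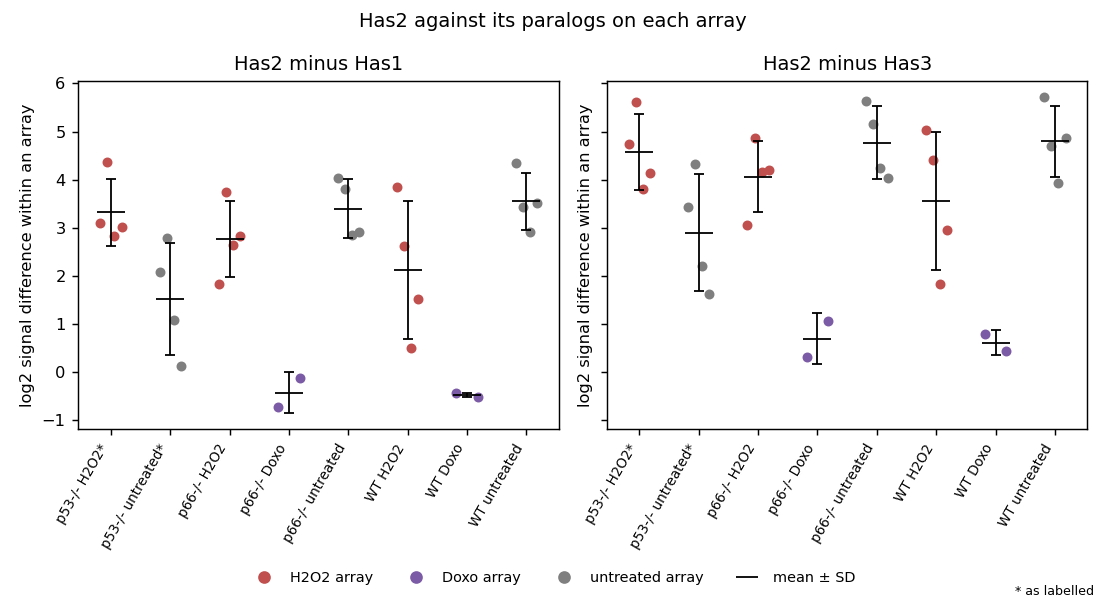
Difference of log2 signals within an array (vertical axis), Has2 minus Has1 on the left and Has2 minus Has3 on the right, for each of the 28 arrays by group, with mean and SD in black. Changes between groups can be read from it, not the level, since probe sets differ in scale; the 4 Doxo arrays lie lowest in each panel.

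Hyal1, the lysosomal hyaluronidase, was the one member that passed after both stresses in WT MEFs. In p66-/- MEFs it was 7.47 and 6.84 after Doxo, 5.63, 6.04, 5.76 and 5.81 after H2O2, and 5.22, 5.64, 5.60 and 5.31 when untreated. In WT MEFs it was 7.27 and 7.34 after Doxo, 5.83, 6.66, 6.13 and 6.13 after H2O2, and 5.31, 5.91, 5.37 and 5.46 when untreated. Doxo arrays were above all others in both genotypes, whereas the H2O2 arrays overlapped the untreated ones at the edge. Taken by replicate number, each H2O2 array was above its untreated counterpart in both genotypes. The rise after Doxo was 1.71 in p66-/- (3.28-fold, SE 0.21, adjusted p = 2.8e-06) and 1.79 in WT MEFs (3.46-fold, SE 0.21, adjusted p = 2.1e-06), with a difference of -0.08 between them (95% interval -0.68 to 0.53, adjusted p = 1.0). After H2O2 Hyal1 rose by 0.67 in WT MEFs (1.60-fold, SE 0.17, adjusted p = 0.0235, or 0.00491 with the replicate number as a block), with a change of 0.63 within replicates 1 and 2 (adjusted p = 0.666) and 0.72 within replicates 3 and 4 (adjusted p = 0.00363). Its change in p66-/- MEFs was 0.36 (adjusted p = 1.0, or 0.507 with the block), a difference between genotypes of -0.31 (95% interval -0.81 to 0.19). This call was lost when any of 5 arrays was left out: WT untreated replicate 1 (0.61, adjusted p = 0.0900), 3 (0.63, 0.0828) or 4 (0.66, 0.0706), or WT H2O2 replicate 2 (0.52, 0.102) or 4 (0.69, 0.0501). The p53-/- arrays read 5.12, 5.55, 5.14 and 5.21 when labelled H2O2, against 5.34, 5.79, 5.56 and 5.58 when labelled untreated, a difference of -0.31 by label (adjusted p = 0.357) and 0.31 with the labels exchanged.

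In RefSeq the Hyal1 gene model overlaps Naa80, an actin N-terminal acetyltransferase, and Naa80 overlaps Hyal3. Naa80 rose by 1.24 in p66-/- (adjusted p = 1.1e-05) and by 1.43 in WT MEFs (SE 0.17, adjusted p = 3.0e-06) after Doxo, and its change after H2O2 in WT MEFs was 0.43 (adjusted p = 0.107). The change of Hyal3 after Doxo was 0.34 in p66-/- MEFs (adjusted p = 0.0794), and it rose by 0.53 in WT MEFs (adjusted p = 0.0105). Whether signal is shared between these neighbours was not tested.

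Hyal2, the hyaluronidase anchored at the cell surface, was 8.25 and 8.33 in p66-/- MEFs after Doxo, against 7.03, 6.53, 7.15 and 7.54 in untreated cells. It was 8.32 and 8.36 in WT MEFs after Doxo, against 6.90, 6.73, 7.36 and 7.18. The 4 Doxo arrays were thus the highest of the 28. The rise was 1.23 in p66-/- (2.34-fold, SE 0.29, adjusted p = 0.00201) and 1.30 in WT MEFs (2.46-fold, SE 0.29, adjusted p = 0.00151), with a difference of -0.07 (95% interval -0.91 to 0.77, adjusted p = 1.0). H2O2 went with 6.77, 6.55, 7.06 and 7.08 in p66-/- and 5.71, 6.66, 7.33 and 6.81 in WT MEFs, changes of -0.20 (adjusted p = 1.0) and -0.41 (adjusted p = 0.554). In p53-/- MEFs the arrays labelled H2O2, at 7.17, 7.30, 7.17 and 7.10, all lay above those labelled untreated, at 6.34, 6.66, 6.45 and 6.52. The difference was 0.70 by label (SE 0.23, adjusted p = 0.0986, or 0.0324 with the replicate number as a block) and -0.70 with the labels exchanged.

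Cd44, the main cell-surface receptor of hyaluronan, was above the array median on every array at its brightest probe set. That probe set was at 10.33 and 10.73 in p66-/- MEFs after Doxo, against 11.33 to 12.40 in untreated cells, and 10.46 and 10.94 in WT MEFs after Doxo, against 10.63 to 11.86. The groups were apart in p66-/- MEFs and overlapped in WT MEFs. Cd44 fell by 1.29 in p66-/- MEFs (2.45-fold, SE 0.34, adjusted p = 0.00494), and its change in WT MEFs was -0.68 (SE 0.34, adjusted p = 0.119). The difference between these responses was -0.61 (95% interval -1.60 to 0.39, adjusted p = 1.0). Without p66-/- Doxo replicate 1 the p66-/- change was -1.09 (adjusted p = 0.0699), and without WT untreated replicate 2 the WT change was -0.94 (adjusted p = 0.0339). Against untreated replicates 3 and 4 alone it was -1.13 (adjusted p = 0.00863), and against replicates 1 and 2 alone -0.23 (adjusted p = 0.675). The probe sets of Cd44 disagreed: a second one fell by 1.25 in p66-/- MEFs (adjusted p = 0.00593), another had 0.14 in p66-/- and 0.51 in WT MEFs (adjusted p = 0.854 and 0.493), and the fourth was below the array median on all 28 arrays. After H2O2 the brightest probe set changed by -0.11 in p66-/- and -0.00 in WT MEFs, and by 0.21 in p53-/- MEFs by label.

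**Figure D5:**
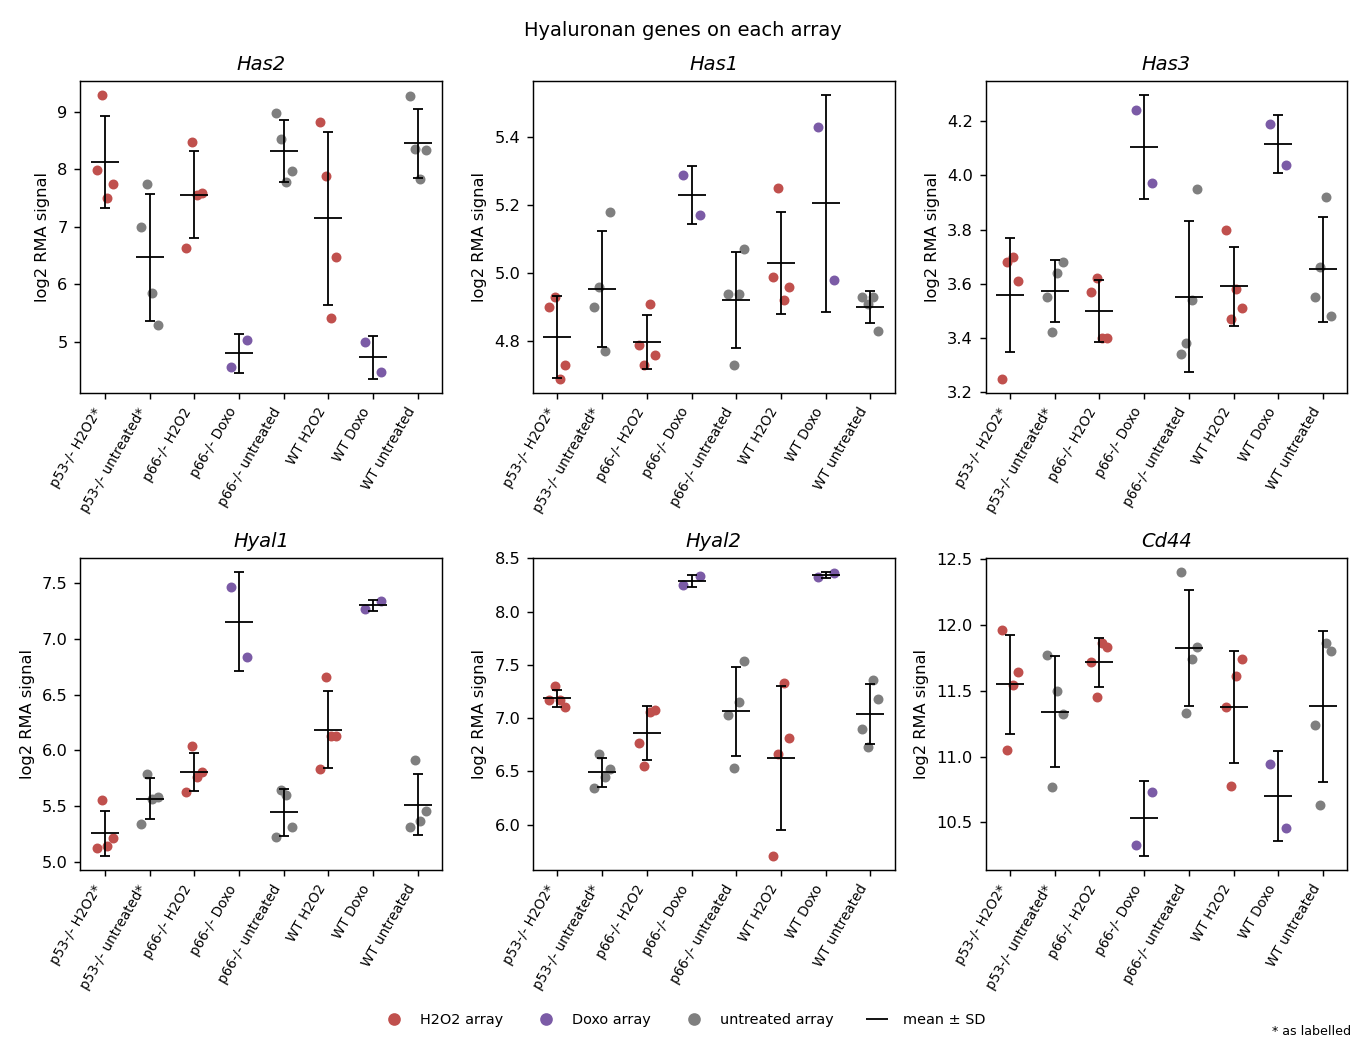
Log2 signal (vertical axis, scaled for each gene) of Has2, Has1, Has3, Hyal1, Hyal2 and Cd44 on each of the 28 arrays by group, with mean and SD in black. Purple Doxo points lie at the bottom for Has2 (4.47 to 5.04) and at the top for Hyal1 (6.84 to 7.47) and Hyal2 (8.25 to 8.36).

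Set directly against H2O2, Doxo gave lower Ptgs2 and Has2 and higher Hyal1 and Hyal2. In p66-/- MEFs 14 of the 16 member probe sets passed, 8 up and 6 down, against 45.7% of all probe sets. In WT MEFs 8 passed, 4 each way, against 29.8%. Ptgs2 was 6.00 lower on the log2 scale after Doxo than after H2O2 in p66-/- MEFs (-6.00, adjusted p = 2.4e-05) and 3.86 lower in WT MEFs (-3.86, adjusted p = 0.00252). For Has2 the differences were -2.76 in p66-/- (adjusted p = 0.00503) and -2.42 in WT MEFs (adjusted p = 0.0172), for Hyal1 1.35 in p66-/- (adjusted p = 3.7e-05) and 1.12 in WT (adjusted p = 3.9e-04), and for Hyal2 1.43 in p66-/- (adjusted p = 5.1e-04) and 1.71 in WT (adjusted p = 1.4e-04). Without WT Doxo replicate 2 the WT count was 3, and without p66-/- Doxo replicate 1 the p66-/- count was 8. Whether the 2 treatments were run together is not given in the sources used here.

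Between p53-/- and WT MEFs the H2O2 responses by label differed for 5 member probe sets of 4 genes, 4 up and 1 down, against 10.8% of all probe sets. Ptgs2 differed by 3.35 (SE 1.02, adjusted p = 0.0361), Has2 by 2.96 (SE 0.85, adjusted p = 0.0255), Hyal2 by 1.11 (SE 0.33, adjusted p = 0.0314) and Hyal1 by -0.99 (SE 0.24, adjusted p = 0.00760). Within replicates 1 and 2 none of these differences passed, at 1.19 for Ptgs2 (adjusted p = 0.551), 1.72 for Has2 (adjusted p = 0.486), 1.36 for Hyal2 (adjusted p = 0.160) and -0.87 for Hyal1 (adjusted p = 0.468). Within replicates 3 and 4 they were 5.50 for Ptgs2 (adjusted p = 2.9e-05), 4.19 for Has2 (adjusted p = 1.5e-04), 0.85 for Hyal2 (adjusted p = 0.0412) and -1.11 for Hyal1 (adjusted p = 9.1e-04). With the p53-/- labels exchanged the differences over all arrays were -0.65, -0.36, -0.28 and -0.36 (adjusted p = 1.0 each), none of the members passed, and the background was 0.0200%. The direction of every one of these p53-/- results except that of Hyal1 thus depends on the labels. Without the p53-/- array labelled untreated of replicate 3 the count was 2.

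Over all 28 arrays Ptgs2 and Has2 correlated at r = 0.93, and over the 24 arrays without Doxo at 0.87. Of 17088 other genes, those most like Ptgs2 were Rbms1, Mir100hg, Dnajb4, Mbtps2 and Cttnbp2nl, each at r = 0.97, or 0.93 to 0.94 without the Doxo arrays. Most like Has2 were Ell2 (0.96), Hmga2 (0.95), Nfkbiz (0.94), Cblb (0.93) and Rasa2 (0.93), or 0.92, 0.93, 0.87, 0.90 and 0.86 without Doxo. These arrays share preparations, array sets and treatments, and the coefficients describe likeness of pattern only.

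Probe sets of the wider prostanoid pathway passed after Doxo in both directions, in p66-/- MEFs at shares near those of all probe sets. Whether the counts of this and the following lists exceed those shares was not tested. Of the 30 probe sets of 19 genes measured from its list, 8 rose and 5 fell in p66-/- MEFs, and 8 rose and 6 fell in WT MEFs; the median change was 0.23 and 0.28. For all probe sets the shares were 26.6% up and 14.1% down in p66-/- MEFs and 21.9% and 13.0% in WT MEFs, with medians of 0.15 and 0.13, and the counts of the lists that follow stand beside the same shares. Pla2g4a, the cytosolic phospholipase A2 that supplies arachidonic acid, fell by 2.37 in p66-/- (SE 0.45, adjusted p = 3.2e-04) and fell by 2.59 in WT MEFs (SE 0.45, adjusted p = 1.6e-04). Ptges3, a prostaglandin E synthase that is also the Hsp90 co-chaperone p23, fell by 1.16 at its brightest probe set in p66-/- (adjusted p = 4.7e-07) and fell by 1.05 in WT MEFs (adjusted p = 1.8e-06). The calcium-independent phospholipase Pla2g6 rose by 1.12 at its brightest probe set in each genotype (adjusted p = 6.8e-05 and 8.5e-05), whereas a second one of near signal changed by 0.22 in p66-/- and 0.28 in WT MEFs (adjusted p = 0.251 and 0.148). Among 17 probe sets of prostanoid receptors, 7 rose and 2 fell in p66-/- MEFs, and 6 rose and 1 fell in WT MEFs (medians 0.13 and 0.17). The prostaglandin E2 receptor Ptger4 fell by 1.69 in p66-/- (adjusted p = 7.9e-04) and fell by 1.77 in WT MEFs (adjusted p = 6.1e-04), and another receptor of the same ligand, Ptger2, rose by 0.98 in p66-/- (adjusted p = 0.00301) and 1.17 in WT MEFs (adjusted p = 8.0e-04). Ppard, a nuclear receptor for lipid ligands, rose by 0.75 at its brightest probe set in p66-/- MEFs (adjusted p = 0.0172), with 0.60 in WT MEFs (adjusted p = 0.0557). A second Ppard probe set, with a mean signal of 3.82, rose by 0.40 in p66-/- and 0.51 in WT MEFs (adjusted p = 0.0121 and 0.00266). Of the 17 probe sets of the leukotriene pathway, the other branch from arachidonic acid, 10 rose in p66-/- and 7 in WT MEFs and none fell (medians 0.47 and 0.35). They included Ltc4s, the leukotriene C4 synthase (0.43 in p66-/- and 0.49 in WT MEFs, adjusted p = 0.00493 and 0.00224), Ltb4r1, a leukotriene B4 receptor (0.94 in p66-/- and 0.87 in WT MEFs, adjusted p = 0.00350 and 0.00694), and Mgst2 (0.49 in p66-/- and 0.65 in WT MEFs, adjusted p = 0.0455 and 0.0124).

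Several enzymes that supply the hyaluronan precursors fell after Doxo, as Has2 did. Of 28 probe sets of 14 genes for supply and turnover, 11 fell and 4 rose in p66-/- MEFs, and 12 fell and 4 rose in WT MEFs, with medians of -0.17 and -0.01 beside 0.15 and 0.13 over all probe sets. Gnpnat1, which acts on the way to UDP-N-acetylglucosamine, fell by 1.99 in p66-/- (adjusted p = 5.5e-07) and fell by 2.13 in WT MEFs (adjusted p = 3.2e-07). Uap1, the last enzyme of that route, fell by 1.47 in p66-/- (adjusted p = 1.0e-05) and fell by 1.68 in WT MEFs (adjusted p = 3.0e-06). Ugp2, which makes UDP-glucose, fell by 1.47 in p66-/- (adjusted p = 1.9e-05) and fell by 1.78 in WT MEFs (adjusted p = 2.9e-06). Outside the rule for naming genes and chosen after their values were seen, Gfpt1, the entry enzyme of the hexosamine pathway, fell by 2.39 in p66-/- (adjusted p = 1.2e-06) and fell by 2.06 in WT MEFs (adjusted p = 7.9e-06), and Ugdh, which makes UDP-glucuronic acid, fell by 1.14 in p66-/- (adjusted p = 4.2e-04) and fell by 1.35 in WT MEFs (adjusted p = 9.2e-05). Those that rose in both genotypes were Hyal5 and the lysosomal Gusb and Hexa, which degrade hyaluronan fragments: Gusb by 0.92 in p66-/- and 0.90 in WT MEFs (adjusted p = 0.0102 and 0.0131) and Hexa by 0.74 in each (adjusted p = 0.00698 and 0.00812). Dim further probe sets of Gnpnat1, Uap1 and Gfpt1 did not pass.

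Of 41 probe sets of 24 hyaluronan-binding genes, 9 rose and 5 fell in p66-/- MEFs after Doxo, and 9 rose and 6 fell in WT MEFs (medians 0.17 and 0.15). Hmmr, a hyaluronan-binding protein of the mitotic spindle, fell by 1.96 at its brightest probe set in p66-/- (SE 0.36, adjusted p = 2.6e-04) and fell by 2.22 in WT MEFs (SE 0.36, adjusted p = 8.2e-05), and 2 of its 4 other probe sets did not pass in either genotype. Itih3, a heavy chain that is transferred to hyaluronan, rose by 0.32 in p66-/- and 0.42 in WT MEFs (adjusted p = 0.0286 and 0.00646). The dimmer of 2 Habp4 probe sets had 0.46 in p66-/- MEFs (adjusted p = 0.0923) and rose by 0.79 in WT MEFs (adjusted p = 0.00844), and the brighter had 0.15 in p66-/- and 0.21 in WT MEFs (adjusted p = 0.444 and 0.279). Of the genes named from these lists, Ptger2, Ltc4s, Ltb4r1, Hyal3, Hyal5 and Itih3 had mean signals over the 28 arrays below the lowest array median.

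After H2O2 in WT MEFs, where 3.66% of all probe sets passed, none of the 30 prostanoid pathway, 1 of the 17 receptor, none of the 17 leukotriene, 2 of the 28 supply and turnover and 1 of the 41 hyaluronan-binding probe sets did. None passed in p66-/- MEFs, where 0.0178% of all did. Ptger4 fell by 1.41 (SE 0.29, adjusted p = 0.00487) and Cemip2, known as a cell-surface protein of hyaluronan turnover, fell by 1.10 (SE 0.24, adjusted p = 0.00729) and, at a second probe set, fell by 1.06 (adjusted p = 0.0440). Stab1, a scavenger receptor of endothelial cells and macrophages that is related to hyaluronan receptors, rose by 0.76 (SE 0.21, adjusted p = 0.0398). In p66-/- MEFs the changes of the same genes were -0.51, -0.35 and 0.04 (adjusted p = 1.0 each). In p53-/- MEFs by label 4.56% of all probe sets passed. Of the receptor probe sets 1 rose (Ptger4) and 1 fell (Ptger3), of the leukotriene ones 1 fell (Alox15), and of those for supply and turnover 3 rose (Cemip2 and Pgm3). None of the prostanoid pathway or hyaluronan-binding ones passed. By label Ptger4 differed by 1.62 (adjusted p = 0.00143) and Cemip2 by 1.64 (adjusted p = 2.0e-04), the opposite sign to WT. With the labels exchanged all these p53-/- directions turn, and those of Ptger4 and Cemip2 have the sign of WT.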

How the data were processed

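The 28 samples are Affymetrix MG-430 PM arrays. Per the submitters' processing notes, the authors normalized them with RMA in Partek 6.5, which left deposited values in log2 units; no scanner files were used here. Precision is set by the number of arrays, as array signals carry no read depth. Of 45141 probe sets, 104 controls were left out and 45037 tested. The probe annotation gives 1 symbol for 28898, several for 551 and none for 15588. A gene is represented by its probe set with the highest mean.

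Group means of the 8 groups were fitted with limma 3.58.1 (R 4.3.3), and contrasts gave treatments, genotypes and their interactions, with Benjamini-Hochberg adjustment over all probe sets; a call is an adjusted p under 0.05. The fit was run on simulated data with independent noise and with effects planted in the WT H2O2 group only. That run held no pairs or array sets and did not test the Doxo contrasts. Paralog differences were tested by exact enumeration in Python 3.11.15. p-values measure the spread between these arrays. Named outside the members are, for each list, up to 3 called genes with the lowest adjusted p in WT MEFs per treatment, and the 5 genes most like Ptgs2 and Has2. Members and lists were chosen with earlier results of these data known. Deviations from group means correlated between same-numbered H2O2 and untreated arrays of a genotype at 0.51 to 0.75, although p66-/- replicates 3 and 4 were each closest to the other's number. Replicate numbers were hence read as pairs within a genotype, but the main fit, on which the calls rest, holds no pairing. The block by replicate number gave each number the same term in all genotypes and in the Doxo arrays, so that it does not test the pairs within a genotype. For Doxo the correlations were -0.08 to 0.05, and the numbers were not taken to pair those arrays. Alternatives were a block by replicate number, fits to the compared groups, further quantile normalization, leaving out the lowest 40% of probe sets, 1 probe set per gene, the study's threshold, the methods' t-test, exchanged p53-/- labels, array sets alone and each array left out. Markers of fibroblasts, macrophages, endothelium, epithelium, mesothelium and muscle were read beside the results.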

Additional observations from a re-analysis of the deposited data

Results flagged for a closer look

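In 4 genes the H2O2 response by label differed between p53-/- and WT MEFs by the test of that difference, and all 4 rest on p53-/- treatment labels that are in doubt. The difference was 3.35 for Ptgs2, 2.96 for Has2, 1.11 for Hyal2 and -0.99 for Hyal1 on the log2 scale. That of Ptgs2 did not pass when any one of WT untreated replicates 1, 3 and 4, WT H2O2 replicates 3 and 4, p53-/- labelled untreated replicates 3 and 4 or p53-/- labelled H2O2 replicates 1 and 2 was left out, with values of 2.65 to 3.37. That of Has2 did not pass without WT untreated replicate 1, WT H2O2 replicates 3 or 4, p53-/- labelled untreated replicates 3 or 4 or p53-/- labelled H2O2 replicate 2, with values of 2.38 to 2.75. That of Hyal2 did not pass without WT untreated replicates 3 or 4, WT H2O2 replicate 1, p53-/- labelled untreated replicates 1 or 3 or p53-/- labelled H2O2 replicates 1 or 2, with values of 0.80 to 1.11. Hyal1 kept its call in each of these fits. No array stood far from the other 3 of its group by Dixon's test for any member in 54 groups of 4 arrays, where chance flags about 1 in 20.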

How the results depend on the processing

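Counts are of the 16 member probe sets past an adjusted p of 0.05, and the cause of each shift was not tested unless stated. Shares of all probe sets are given only for the main fit, the study's threshold after each treatment and the exchanged p53-/- labels. Member counts of the other fits and at an unadjusted p alone, here and above, have no such share beside them. Whether they exceed it was not tested. Taking 1 probe set per gene, which leaves fewer probe sets to count, gave 8 for Doxo in p66-/- MEFs, 9 for Doxo against H2O2 in p66-/- and 5 in WT MEFs. Fits to the compared groups alone, with fewer arrays to estimate the spread, gave 0 for H2O2 in WT MEFs, 1 for H2O2 in p53-/- MEFs by label, 1 for p53-/- minus WT and 3 for Doxo against H2O2 in WT MEFs. Leaving out the lowest 40% of probe sets gave 2 for p53-/- labelled untreated against untreated WT. The replicate block gave 4 for H2O2 in p53-/- MEFs by label and 5 for p53-/- labelled untreated against untreated WT, where the main fit called none; for Doxo, where the numbers pair nothing, it gave 13 in p66-/- and 12 in WT MEFs. It moved no other count of the H2O2 or untreated comparisons.

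Replicates 1 and 2 alone gave 0 for H2O2 in WT MEFs and 0 for p53-/- minus WT. Replicates 3 and 4 alone gave 4 for H2O2 in WT MEFs, 5 in p53-/- MEFs by label, 1 for p66-/- minus WT and 7 for p53-/- labelled untreated against untreated WT. The study's threshold gave 2, 4 and 4 for H2O2 in WT, H2O2 in p53-/- and p53-/- labelled untreated against WT. The methods' t-test after Benjamini-Hochberg adjustment gave 0 for H2O2 in WT MEFs, 1 in p53-/- MEFs, 4 for Doxo in p66-/- MEFs and 0 for Doxo against H2O2 in WT MEFs, and at the study's threshold 2 for H2O2 in p53-/- MEFs and 3 for p53-/- labelled untreated against WT; it was not run for differences between responses. With the p53-/- labels exchanged, p53-/- minus WT was -0.65 for Ptgs2, -0.36 for Has2 and -0.28 for Hyal2 with 0 probe sets called, and the p53-/- shifts were -1.80 for Has2 minus Has1 and -1.67 for Has2 minus Has3.

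Leaving out 1 array at a time gave 0 to 1 for H2O2 in WT MEFs (0 without WT untreated replicate 1), 0 to 2 in p53-/- MEFs (2 without p53-/- untreated replicate 2), 2 to 5 for p53-/- minus WT (2 without p53-/- untreated replicate 3), 0 to 3 for p53-/- labelled untreated against WT (3 without p53-/- untreated replicate 2), 8 to 14 for Doxo in p66-/- MEFs (8 without p66-/- Doxo replicate 1), 8 to 15 for Doxo against H2O2 in p66-/- MEFs (8 without the same array) and 3 to 8 in WT MEFs (3 without WT Doxo replicate 2). Among values of single genes, 1367 were counted as unchanged, 69 lost their call, 29 gained one, and 3 that were called in the main fit turned sign. A turn of sign in a value not called in the main fit was counted as unchanged, so that these counts do not give how often a sign turned. The falls of Ptgs2 and Has2 and the rise of Hyal1 after Doxo passed under every alternative run. Has3 and the fourth Cd44 probe set lay below the array median throughout, and 2 Doxo arrays per genotype limit the precision of each Doxo value.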

Other observations

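Further genes of the lists, chosen after their values were seen, changed after Doxo. Vcan, a hyaluronan-binding proteoglycan of the matrix, fell by 2.86 at its brightest probe set in p66-/- MEFs (adjusted p = 0.00429) and fell by 2.63 in WT MEFs (adjusted p = 0.00885), while 1 of its dim probe sets rose by 0.33 in p66-/- and 0.30 in WT MEFs (adjusted p = 0.00811 and 0.0177). Alox5, the entry enzyme of leukotriene synthesis, rose by 0.53 in p66-/- (adjusted p = 0.00566) and 0.46 in WT MEFs (adjusted p = 0.0171). Pgm3, a step to UDP-N-acetylglucosamine, fell by 1.13 at 1 probe set in each genotype (adjusted p = 8.8e-04 and 0.00105). In p53-/- MEFs by label that probe set differed by 0.68 (adjusted p = 0.0464). The macrophage markers had a median change of 0.62 in p66-/- and 0.88 in WT MEFs after Doxo, with 1 probe set past the threshold upward in each and 1 downward in p66-/- MEFs. Their part in the changes above was not tested.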
